A study of Mus musculus with 18 samples.

Results

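The genes described here are the T cell coreceptor genes Cd4, Cd8a and Cd8b1 and the genes of 2 transcription factors of the CD4 and CD8 lineages, Zbtb7b and Runx3. They are 5 of the 22180 mouse genes measured by a probe set that the platform annotation gives to a single gene symbol. Each of the 5 has 1 such probe set, so no choice among probe sets was needed. Their values were read in 5 sorted fractions of a thymic lymphoma and in LSK cells, a bone marrow population that lacks lineage markers, carries Sca1 and Kit and holds the blood stem cells. The lymphoma fractions, named CLP, DN1, DN2, DN3 and DN4 in the labels, came from moribund mice of the genotype Lck-Cre transgene. These mice had been irradiated at a sublethal dose and given bone marrow infected with a retrovirus for NPM-ALK (the oncogenic kinase fusion found in anaplastic large cell lymphoma), which the labels describe as expressed in early T cells. The LSK cells came from the bone marrow of healthy wildtype mice aged 18 months. There were 3 arrays in each of the 6 groups, and the design text speaks of 3 lymphomas. Cre under the Lck promoter acts in the T lineage, and the labels do not say whether the sorted cells descended from the graft or from the irradiated host. Lymphoma and LSK cells differ in disease, tissue, genotype and treatment, and these differences cannot be told apart. The labels give no age for the mice with lymphoma beyond the word moribund. The free-text descriptions name other mice (NIPA KO or wild type, with a dose of 4 Gy on 12 arrays). The dose is given for all DN1, DN2 and DN3 arrays, CLP replicates 1 and 2 and LSK replicate 3. No DN4 array has it, so this entry differs between DN4 and DN1 and within LSK. The titles, tissue and genotype labels were followed. The labels do not say whether arrays of one group came from separate animals, so p-values measure the spread between these arrays.

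CD4 and CD8 are coreceptors: CD4 binds MHC class II and CD8 binds MHC class I beside the T cell receptor, and both bring the kinase Lck to it. CD8 is a dimer of an alpha chain (Cd8a) with a beta chain (Cd8b1) or with a further alpha chain. Thymocytes carry neither coreceptor at the double-negative stages, then both, then 1 of them. The factor ThPOK, product of Zbtb7b, holds cells in the CD4 helper lineage, while Runx3 silences Cd4 and keeps Cd8 genes on in the cytotoxic lineage. RUNX factors also silence Cd4 in double-negative thymocytes. CD4 and CD8 were among the sort antigens together with CD25, CD44, IL7Rα, cKIT, SCA1 and lineage markers that the labels do not name, so coreceptor levels in the fractions were in part set by the gates. The sort reads surface protein and the arrays read RNA.

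In the RefSeq gene table Cd4, Cd8a and Cd8b1 lie on chromosome 6, with Cd8a and Cd8b1 as neighbouring genes and Lag3 next to Cd4. Zbtb7b lies on chromosome 3 and Runx3 on chromosome 4. The RefSeq promoter table (build GRCm38.p6) holds 5 promoters for 3 of the 5 genes. Those of Runx3 and Cd8a are shown because the level of Runx3 differed among the fractions, as given below, and the Cd8 genes are among its known targets. Each runs 5′ to 3′ on the gene's strand, from 250 bases before the start site to 50 after it, and capitals mark RUNX motif letters (TGTGGT or TGCGGT, on either strand).
Runx3, first start, chr4:135120395-135120694, plus strand: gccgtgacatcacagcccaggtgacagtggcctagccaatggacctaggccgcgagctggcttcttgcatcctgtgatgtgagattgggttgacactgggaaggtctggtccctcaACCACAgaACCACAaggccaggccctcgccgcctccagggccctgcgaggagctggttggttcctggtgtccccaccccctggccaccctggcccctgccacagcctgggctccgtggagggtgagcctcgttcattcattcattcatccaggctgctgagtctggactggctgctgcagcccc
Runx3, second start, chr4:135152295-135152594, plus strand: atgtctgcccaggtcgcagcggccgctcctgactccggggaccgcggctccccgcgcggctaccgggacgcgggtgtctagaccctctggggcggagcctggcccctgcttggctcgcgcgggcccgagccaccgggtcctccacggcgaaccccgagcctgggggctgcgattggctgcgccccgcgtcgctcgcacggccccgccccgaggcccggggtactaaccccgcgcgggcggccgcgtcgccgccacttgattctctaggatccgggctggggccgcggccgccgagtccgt
Cd8a, chr6:71373177-71373476, plus strand: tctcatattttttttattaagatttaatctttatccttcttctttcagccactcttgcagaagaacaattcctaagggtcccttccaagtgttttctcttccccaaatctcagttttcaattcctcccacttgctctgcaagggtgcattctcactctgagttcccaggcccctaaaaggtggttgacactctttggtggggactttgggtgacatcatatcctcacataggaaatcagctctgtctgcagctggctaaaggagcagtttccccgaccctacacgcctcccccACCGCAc
The first Runx3 start had 2 ACCACA matches, which begin 134 and 126 bases before the start site. Of 32851 mouse promoters in the table, 16.8% held TGTGGT on either strand, 1.81% held at least 2 of them, and 22.4% held TGTGGT or TGCGGT. The second Runx3 start had 0 matches. Cd8a had 1 ACCGCA match, beginning 43 bases after its start site. Of the 2 Zbtb7b promoters, 1 had a TGTGGT match, 89 bases before its start. These are matches of letters, not measured binding sites. The Runx3 probe set gives 1 value for the gene, so transcripts from the 2 starts were not measured apart.

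Values are log2 RMA signals, in which a difference of 1 is a doubling. They compare arrays for the same gene, not different genes. A signal counted as above background when it passed a level that 95% of the 1091 probe sets for olfactory receptors did not reach on the same array; this level lay between 5.35 and 5.70. The sort labels were set against their own RNAs. Il2ra, which encodes CD25, averaged 11.81 in DN2 and 12.02 in DN3 but 8.31 in CLP, 9.04 in DN1 and 8.71 in DN4. Kit averaged 9.43 in CLP, between 10.77 in DN1 and 10.68 in DN2 on one side and 8.06 in DN3 and 8.20 in DN4 on the other, and Cd44 was also highest in DN1 and DN2. Cd3e, a chain of the T cell receptor complex, averaged between 12.18 and 12.92 in the lymphoma fractions, against 5.09 in LSK. The CLP label was not borne out by Flt3, a defining receptor of common lymphoid progenitors, which was above background on 0 of 15 lymphoma arrays. Il7r passed background on all 15 and averaged 7.99 in CLP, against 6.10 in LSK. That was its lowest mean among the lymphoma fractions, but the CLP arrays were spread widely. The summed linear signal of Il7r and Flt3 ran from 149 to 439 in CLP. This overlapped DN2 (411 to 444) and DN4 (377 to 433). CLP is used below as the name of that fraction only. The 3 LSK arrays also differed in sex-linked genes: Xist read 3.81 to 5.03 in the lymphoma fractions, against 3.55, 10.74 and 10.00 in LSK. Eif2s3y read 8.62 to 9.44 in the lymphoma fractions, against 8.42, 7.43 and 4.69 in LSK. The comparisons with LSK carry this difference as well, and its part was not tested. Replicates correlated between 0.968 and 0.993 over the 22180 genes, lowest within CLP.

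Of the coreceptor genes, the CD8 beta chain gene was the one clearly on in every lymphoma fraction. Cd8b1 read 8.04, 8.82 and 8.76 in CLP, 8.79, 8.58 and 9.05 in DN1, and 8.00, 8.14 and 8.37 in DN2. It read 8.70, 8.47 and 9.02 in DN3, 8.48, 8.35 and 8.60 in DN4, and 5.19, 4.85 and 5.63 in LSK. All 15 lymphoma arrays lay above all 3 LSK arrays, and 1 of the 3 LSK arrays passed background. The lymphoma fractions together, taken as 3 means of the 5 arrays with the same replicate number, were 3.32 above LSK (SE 0.186, 95% interval 2.90 to 3.74, adjusted p = 9.15e-07, limma with Benjamini-Hochberg adjustment over 22180 genes). Set against the background floor in LSK, Cd8b1 was at least 8.42-fold higher. For the single fractions this bound was 8.40-fold for CLP, 10.1-fold for DN1, 6.49-fold for DN2, 9.57-fold for DN3 and 8.04-fold for DN4, with adjusted p between 1.32e-07 and 3.83e-05.

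The CD8 alpha chain gene, the neighbour of Cd8b1, stayed at the edge of detection. Cd8a read 4.88, 4.49 and 4.91 in CLP, 4.93, 5.09 and 5.09 in DN1, and 5.27, 5.41 and 5.50 in DN2. It read 5.71, 5.17 and 5.46 in DN3, 5.22, 5.67 and 5.32 in DN4, and 4.29, 4.40 and 4.65 in LSK. It passed background on 3 of 15 lymphoma arrays, 1 each in DN2, DN3 and DN4, and on 0 of 3 LSK arrays. The CLP and LSK ranges overlapped, and the other lymphoma fractions lay above LSK. The difference between the lymphoma fractions together and LSK passed the test (0.76, SE 0.114, adjusted p = 0.000726), as did those of DN1 (adjusted p = 0.0145), DN2 (0.000244), DN3 (0.000895) and DN4 (0.000635), but not that of CLP (0.274). No fold is given, since most of these values lay below background. Cd8a was read by 1 probe set, and no group was labelled as CD8-positive cells. Low RNA and a weakly responding probe set therefore cannot be told apart. The DN1 call was lost without LSK replicate 1, without LSK replicate 2 or without DN1 replicate 2 (adjusted p = 0.0719, 0.0580 and 0.0507).

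Cd4 RNA was low but above background in most lymphoma arrays and highest in DN1 and DN2. Cd4 read 5.40, 5.55 and 5.87 in CLP, 6.47, 6.96 and 6.47 in DN1, and 6.30, 6.43 and 6.44 in DN2. It read 6.03, 5.95 and 5.81 in DN3, 5.81, 5.58 and 5.82 in DN4, and 4.66, 5.24 and 4.96 in LSK. It passed background on 13 of 15 lymphoma arrays, the exceptions being 2 CLP arrays, and on 0 of 3 LSK arrays. All lymphoma arrays lay above all LSK arrays. The lymphoma fractions together were 1.11 above LSK (SE 0.142, 95% interval 0.79 to 1.43, adjusted p = 0.00027), or at least 1.54-fold higher against the background floor. By fraction the bound was 2.30-fold in DN1 (adjusted p = 7.97e-05), 1.94-fold in DN2 (2.39e-05), 1.41-fold in DN3 (0.000874) and 1.23-fold in DN4 (0.00319). In CLP, where 2 of 3 arrays were below background, the bound was 1.13-fold and the difference did not pass the test (adjusted p = 0.0527), though it did without CLP replicate 1 (0.0336) and with all 18 arrays in 1 model (0.00567). In these bulk samples fewer cells with a transcript and less of it per cell cannot be told apart.

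Of the 2 lineage factors, Runx3 fell in the lymphoma fractions and Zbtb7b gave no call. Runx3 read 6.85, 6.70 and 7.13 in CLP, 7.80, 8.19 and 7.83 in DN1, and 7.37, 7.43 and 7.23 in DN2. It read 6.96, 6.98 and 6.75 in DN3, 6.86, 6.64 and 6.68 in DN4, and 8.29, 8.26 and 8.33 in LSK. All 15 lymphoma arrays lay below all LSK arrays, and all 18 arrays were above background. The lymphoma fractions together were 1.14 below LSK on the log2 scale (difference -1.14, SE 0.0894, 95% interval -1.34 to -0.93, adjusted p = 9.62e-06), which is 0.455 of the LSK level. By fraction the difference was -1.40 in CLP (adjusted p = 0.000333), -0.95 in DN2 (7.80e-05), -1.40 in DN3 (8.78e-06) and -1.57 in DN4 (1.56e-06). DN1 minus LSK was -0.36 (SE 0.148) and did not pass the test (adjusted p = 0.127), although the 3 DN1 arrays lay below the 3 LSK arrays.

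Zbtb7b, the ThPOK gene, was near the background in all groups. Its values were 5.89, 6.15 and 5.72 in CLP, 6.22, 6.19 and 6.04 in DN1, and 5.76, 6.23 and 6.01 in DN2. They were 6.11, 5.92 and 5.67 in DN3, 5.88, 5.95 and 5.84 in DN4, and 5.98, 6.11 and 6.11 in LSK. It passed background on 14 of 15 lymphoma arrays and on 3 of 3 LSK arrays. The lymphoma arrays lay on both sides of the LSK arrays. The lymphoma fractions together minus LSK gave -0.10 (95% interval -0.33 to 0.13, adjusted p = 0.524), and the single fractions gave -0.15 (CLP), 0.08 (DN1), -0.07 (DN2), -0.17 (DN3) and -0.18 (DN4), with adjusted p from 0.294 to 0.785.

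**Figure D1:**
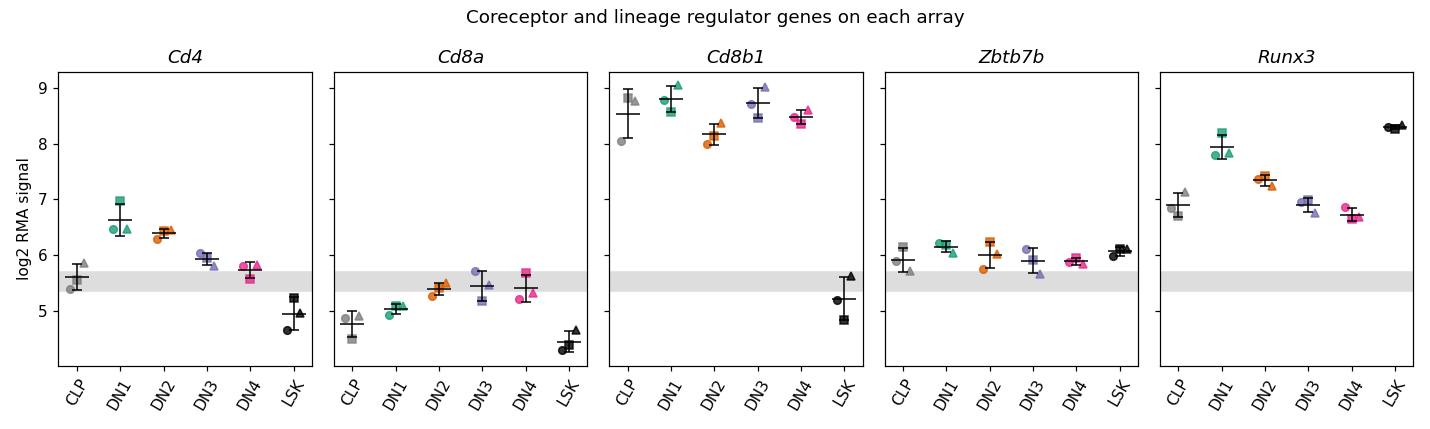
Log2 RMA signal of each gene on each of the 18 arrays (points, marker shape by replicate number), with the mean and SD of each group (n = 3) and the background band of 5.35 to 5.70 in grey. Cd8b1 lies above the band on all 15 lymphoma arrays, Cd8a mostly within or under it, and Runx3 is lower in the lymphoma fractions than in LSK.

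Against LSK, 4 of the 5 genes were called for the lymphoma fractions together, beside 29% of all genes (13.1% higher and 15.8% lower). The count was 2 in CLP (17.7% of all genes), 3 in DN1 (19.7%) and 4 each in DN2 (25.4%), DN3 (24.5%) and DN4 (26.6%). These comparisons share the 3 LSK arrays.

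**Figure D2:**
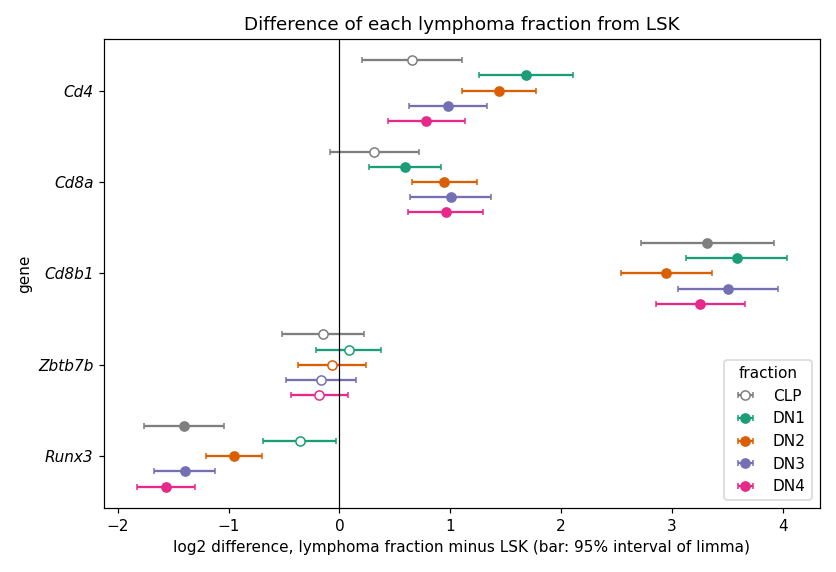
Log2 difference of each lymphoma fraction to LSK for the 5 genes, with its 95% interval from limma; filled points passed an adjusted p of 0.05. Cd8b1 lies between 2.95 and 3.58 in the 5 fractions, and Runx3 between -1.57 and -0.36.

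Among the lymphoma fractions, Runx3 and Cd4 shared their 2 highest fractions and Zbtb7b and Cd8b1 were not called. In the F test over the 15 lymphoma arrays 3 of the 5 genes were called, beside 7.88% of all genes. Runx3 had the widest span of fraction means, 1.21 (adjusted p = 9.93e-05), followed by Cd4 with 1.03 (0.000818) and Cd8a with 0.69 (0.0333). The Cd8a call was lost when the CLP fraction was left out, an alternative chosen after seeing the data (adjusted p = 0.309), and when any of 8 single arrays was left out: CLP replicate 2, DN1 replicates 1 and 2, DN2 replicates 2 and 3, DN3 replicates 1 and 3 or DN4 replicate 3 (adjusted p up to 0.113). Cd8b1 spanned 0.64 and was not called (adjusted p = 0.267), but was without CLP replicate 1 (0.0485). Zbtb7b spanned 0.26 (0.779).

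Runx3 was highest in DN1 and next highest in DN2. Its fraction means were 6.89 ± 0.217 in CLP, 7.94 ± 0.215 in DN1 and 7.34 ± 0.101 in DN2, then 6.90 ± 0.128 in DN3 and 6.73 ± 0.113 in DN4, against 8.30 ± 0.033 in LSK (SD, n = 3 each). Every DN1 array was above every DN2 array, and every DN2 array above every array of CLP, DN3 and DN4. Of neighbours in the order LSK, DN1, DN2, DN3, CLP and DN4, no pair passed its test; DN2 minus DN1 came nearest with -0.59 (adjusted p = 0.0581). Wider steps did pass. DN4 was 1.21 below DN1 (difference -1.21, 95% interval -1.52 to -0.90, adjusted p = 2.59e-05), DN3 minus DN1 was -1.04 (0.000133) and DN1 minus CLP was 1.04 (0.000169). DN4 minus DN2 was -0.62 (0.0280), a call lost without any 1 of the 3 DN2 arrays or of DN4 replicates 2 and 3 (adjusted p from 0.0561 to 0.143).

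Cd4, a gene that RUNX factors silence, had its highest level in the same fractions. Its means were 5.61 ± 0.239 in CLP, 6.63 ± 0.286 in DN1 and 6.39 ± 0.081 in DN2, then 5.93 ± 0.114 in DN3 and 5.73 ± 0.136 in DN4, against 4.95 ± 0.291 in LSK (SD, n = 3 each). DN1 and DN2 arrays lay above all arrays of CLP, DN3 and DN4, whose ranges overlapped. DN4 minus DN1 was -0.90 (95% interval -1.23 to -0.57, adjusted p = 0.00126) and DN1 minus CLP was 1.03 (0.000399). DN2 minus CLP was 0.78 (0.00992), DN3 minus DN1 was -0.70 (0.00909) and DN4 minus DN2 was -0.66 (0.0310). These last 3 calls were lost when some single arrays were left out. The DN2 minus CLP call was lost without DN2 replicate 2 or 3 (adjusted p = 0.0564 and 0.0517), with differences of 0.68 to 0.91 over all single omissions. The DN3 minus DN1 call was lost without DN1 replicate 2 or DN3 replicate 3 (0.0576 and 0.0501), with differences of -0.79 to -0.54. The DN4 minus DN2 call was lost without any 1 of its 6 arrays (0.0667 to 0.178), with differences of -0.70 to -0.58.

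Cd8b1 did not share this order. Its lowest mean was in DN2, 8.17 ± 0.186, beside 8.54 ± 0.432 in CLP, 8.81 ± 0.237 in DN1, 8.73 ± 0.276 in DN3 and 8.48 ± 0.127 in DN4 (SD, n = 3 each). None of its 10 pair differences passed the test; DN2 minus DN1 was -0.64 (adjusted p = 0.199) and DN3 minus DN2 was 0.56 (0.277). Cd8a had its lowest mean in CLP, and DN2 minus CLP was its only called pair (0.63, adjusted p = 0.0495), with values mostly below background. That call was lost with the replicate number as a block (0.0535), without CLP replicate 2 and without any 1 of the 3 DN2 arrays.

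**Figure D3:**
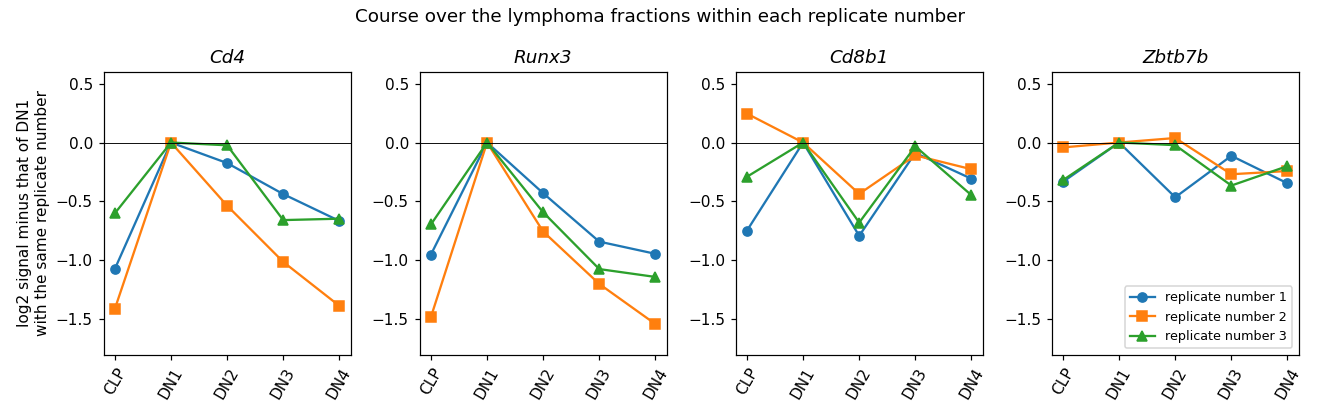
Log2 signal of 4 genes in each lymphoma fraction minus that of the DN1 array with the same replicate number; each line joins the 5 arrays of 1 number, so DN1 is at 0. For DN4 the Cd4 lines end at -0.67, -1.39 and -0.65 and the Runx3 lines at -0.94, -1.54 and -1.14. The Cd8b1 lines end there at -0.31, -0.23 and -0.45 and the Zbtb7b lines at -0.35, -0.24 and -0.20. In DN2 the Cd8b1 lines lie at -0.79, -0.44 and -0.68. Cd8a is not drawn because it was mostly below background.

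Over the 10 pairs of fractions, 2 of the 5 genes were called in each of DN1 minus CLP (7.78% of all genes), DN2 minus CLP (2.87%), DN3 minus DN1 (6.7%), DN4 minus DN1 (5.61%) and DN4 minus DN2 (2.65%). In the others 0 of 5 were called by limma: DN3 minus CLP (1.1% of all genes), DN4 minus CLP (1.07%), DN2 minus DN1 (1.35%), DN3 minus DN2 (2.45%) and DN4 minus DN3 (0.00451%). P-values were adjusted over genes within each pair, not over pairs.

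Markers of other cells that can carry CD4, CD8 or Runx3 were read in the same arrays. Of 4 natural killer cell markers measured, 0 were above background on all arrays of any group, with summed linear signals of 83.6 to 92.9 in DN4 and 78.0 to 96.4 in DN1. Of 4 dendritic cell markers, 0 were above background on all arrays in either fraction, and their sum ran from 154 to 162 in DN4 and from 147 to 161 in DN1. Of 6 macrophage markers, 2 were above background on all arrays of both fractions, and their sum ran from 612 to 652 in DN4 and from 538 to 888 in DN1. Of 5 markers of gamma delta and innate-like T cells, 3 were above background on all arrays of both fractions, and their sum was higher in DN4 (446 to 475) than in DN1 (347 to 422), opposite to Cd4 and Runx3. Sox13, with the highest signal of the 5 and so the most weight in the sum, averaged 7.96 in DN4, against 7.65 in DN1. It was not called in the F test over all lymphoma fractions (adjusted p = 0.572). Blk averaged 6.57 in DN4, against 5.71 in DN1, and Zbtb16 5.95, against 6.23. Blk and Zbtb16 were called in the F test over all lymphoma fractions (adjusted p = 0.00283 and 0.0279), which does not test this pair. Zbtb16 had its lowest mean in DN3 (5.24). In the lymphoma fractions together against LSK, Zbtb16 (-1.46, adjusted p = 3.32e-05, limma) and Maf (-0.46, 0.0182) were lower. Sox13 was higher (0.82, 0.00108), and Blk (-0.37) and Il23r (0.03) were not called. Against LSK, several myeloid markers went the same way as Runx3. The dendritic cell sum was 137 to 162 in the lymphoma fractions, against 211 to 237 in LSK, where 3 of the 4 markers were above background on all arrays. The macrophage sum was 408 to 888, against 831 to 914 in LSK, where 4 of the 6 were. Csf1r (-2.64, adjusted p = 1.67e-07, limma), Lyz2 (-2.37, 3.68e-05), Itgax (-1.68, 3.99e-05) and Adgre1 (-0.85, 0.000531) were lower in the lymphoma fractions. Cd68 (0.61, 0.00276) and C1qa (0.38, 0.0153) were higher. The remaining markers measured for both cell types were not called: Siglech (-0.37), Zbtb46 (-0.20), Xcr1 (0.28) and Mertk (0.08). The part of these cells in the member differences was not tested.

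The genes most like each member were taken by Pearson r over the 15 lymphoma arrays, among 7525 genes above background with an SD of at least 0.2. These arrays share lymphomas and gates, so the correlations describe them only. Runx3 was most like Pim1 (r = 0.965), a serine/threonine kinase gene downstream of cytokine receptors, then Xdh (0.957), the xanthine dehydrogenase gene, and Atp10a (0.957), a phospholipid flippase gene. Pim1 averaged 7.14 in CLP, 8.12 in DN1 and 7.75 in DN2, then 7.24 in DN3 and 7.07 in DN4, against 8.22 in LSK. Xdh averaged 6.12, 7.50, 6.51, 5.69 and 5.56 in the same fractions, against 4.89 in LSK, so its lymphoma levels lay above LSK where those of Runx3 lay below. Cd4 was most like Ndrg2 (0.959), Dhx32 (0.954) and Wdr13 (0.933). The closest genes were less alike for Cd8b1 (Rhob 0.865, Chm 0.811 and Ppp3cc 0.797) and for Zbtb7b (Arhgap25 0.828, B4galnt4 0.791 and Shc1 0.789). Cd8a was below background in every group mean and was left out.

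Around the members, 8 lists of genes of the CD4 and CD8 choice were counted. For all 22180 genes, 2914 were higher and 3511 lower in the lymphoma fractions together against LSK (median difference 0.05), and 626 were higher and 619 lower in DN4 against DN1 (median 0.03). The F test called 1748 of all 22180 genes (7.88%). In the lists it called 6 of 15 regulators of the member genes, 1 of 7 RUNX partners and TLE corepressors, 5 of 10 signalling partners and 5 of 11 cytokine signalling genes. It called 3 of 9 helper genes, 4 of 14 cytotoxic genes, 3 of 8 double-positive stage genes and 4 of 6 single-positive maturation genes. Some other genes of the lists are not reported here.

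Among regulators of the Cd4, Cd8, Zbtb7b and Runx3 genes, 9 of 15 measured were higher in the lymphoma fractions than in LSK and 0 were lower (median difference 1.38). Bcl11b, a T lineage commitment factor, averaged 9.58 in the lymphoma fractions, against 4.85 in LSK, where it was below background on all 3 arrays (at least 17.7-fold higher, adjusted p = 2.27e-08). Gata3, which acts upstream of ThPOK, was 2.32 higher (1.21e-06), Ets1 2.36 higher (1.43e-06) and Tcf12 1.46 higher (2.82e-06). In DN4 against DN1, 6 of 15 were higher and 0 lower (median 0.36), a course opposite in sign to that of Runx3 and Cd4. Lef1 averaged 11.97 in DN4, against 10.54 in DN1 (difference 1.42, adjusted p = 6.95e-06). Tox, needed for CD4 lineage cells, was 0.80 higher (0.00334), Patz1 0.73 higher (0.00509) and Runx1, the RUNX factor that silences Cd4 in double-negative thymocytes, 0.81 higher (0.00194). Runx1 averaged 9.84 in CLP, 9.36 in DN1 and 9.73 in DN2, then 10.13 in DN3 and 10.17 in DN4, against 9.68 in LSK. Its lowest mean among the fractions was in DN1, the fraction with the highest Runx3 and Cd4. Cd4 was lowest in CLP, where Runx1 averaged 9.84. Whether these levels are linked was not tested. Runx1 was not called against LSK (0.17, adjusted p = 0.324).

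Of the RUNX partners and TLE corepressors, 1 of 7 measured was higher in the lymphoma fractions than in LSK and 5 were lower (median -0.48). Tle4 averaged 4.79, below background, in the lymphoma fractions, against 8.59 in LSK (at least 8.16-fold lower, adjusted p = 1.78e-08), and Tle1 averaged 4.17, also below background, against 6.06 (at least 1.41-fold lower, 4.04e-05). Cbfb, the shared DNA-binding partner of RUNX proteins, was lower by a smaller step (-0.48, 0.00473), as was Tle6 (-0.45, 0.00684). In DN4 against DN1 the only call was Runx1.

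Coreceptor signalling partners were higher than in LSK for 8 of 10 measured genes and lower for 1 (median 1.88). The receptor-chain gene Cd3e was 7.50 higher, with 1 of 3 LSK arrays above background. The regulator gene Themis was below background on all LSK arrays and at least 10.6-fold higher in the lymphoma fractions. The kinase gene Zap70 was 4.24 higher and the inhibitory receptor gene Cd5 2.55 higher. The adjusted p of these 4 genes lay between 3.62e-09 and 9.54e-08. Between DN4 and DN1, 3 were higher and 1 lower in DN4 (median 0.02). Cd5 averaged 9.67 in DN4, against 7.94 in DN1 (difference 1.74, adjusted p = 5.25e-08), and the kinase gene Fyn was 1.06 higher (1.19e-05).

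Cytokine signalling genes of the CD8 choice held 4 higher and 1 lower of 11 measured against LSK (median 0.20). Il7r, whose receptor drives Runx3 in thymocytes choosing the CD8 lineage, averaged 8.75 in the lymphoma fractions, against 6.10 in LSK (difference 2.65, adjusted p = 5.25e-05), and Il6st was 1.48 higher (1.37e-05). In DN4 against DN1, 1 was higher and 4 lower (median -0.33). The lower ones were Il7r (-1.24, 0.0102), Socs1 (-1.53, 8.04e-07), Il6st (-0.63, 0.0140) and Stat5a (-0.51, 0.0128). Smad3, a TGF-β signal carrier, was 1.86 higher (4.29e-05). IL7Rα was a sort antigen.

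Mature helper and cytotoxic genes were called in both directions. Of 9 helper lineage genes, 2 were higher than in LSK and 3 lower (median 0.17). Of the lower ones, Il4 was below background on all 18 arrays. For the lymphoma fractions together, Icos, a costimulatory receptor gene, was 0.92 higher (adjusted p = 0.00174). Cxcr5 (-0.74, 0.000343) and Bcl6 (-0.48, 0.00665) were lower. The fractions were not alike in this. Icos averaged 7.22 in CLP and 7.39 in DN3, but 5.49 in DN1 and 5.22 in DN2, against 5.61 in LSK. Bcl6 averaged 6.69 in CLP and 6.51 in DN3, but 7.57 in DN1 and 7.39 in DN2, against 7.44 in LSK. Icos averaged 7.34 in DN4, against 5.49, below background, in DN1 (at least 3.46-fold higher, adjusted p = 8.58e-05), and Bcl6 6.62, against 7.57 (-0.95, 0.00550). Of the 9, 2 were higher in DN4 than in DN1, Il4 among them, and 1 was lower (median -0.01). Of 14 cytotoxic lineage genes, 3 were higher than in LSK and 6 lower (median -0.10). Of the lower ones, Xcl1 was below background on all 18 arrays, and Gzmb was above it on 0 of 15 lymphoma arrays and 1 of 3 LSK arrays. Gzma, the granzyme A gene, averaged 11.65 in the lymphoma fractions, against 4.38, below background, in LSK (at least 74.3-fold higher, adjusted p = 4.20e-09), and Cst7 was 1.83 higher (4.10e-05). Ccl5 (-3.52, 2.43e-06) and Nkg7 (-1.71, 2.79e-06) were lower, as was Klrd1, which was below background on all lymphoma arrays (at least 1.52-fold lower, 7.47e-07). Between DN4 and DN1, 0 of 14 were higher and 3 lower (median -0.20), among them Cst7 (-1.09, 6.52e-05) and Klrd1, which was below background in both.

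Of double-positive stage genes, 6 of 8 measured were higher than in LSK and 1 lower (median 0.56). Aqp11 and Arpp21 were below background on all LSK arrays and at least 19.1-fold (adjusted p = 1.35e-08) and 7.82-fold (1.97e-07) higher in the lymphoma fractions. Dntt, the terminal transferase gene, was 1.61 higher (0.00022), while Plxnd1 was lower (-1.08, 0.000273). Set against DN1, DN4 had 2 of them higher and 2 lower (median 0.03), with Arpp21 1.61 higher (2.07e-05) and Dntt lower (-1.07, 7.38e-05). The other two, Rag2 (higher) and Ccr9 (lower), were above background on 1 and 0 of the 6 arrays, and Rag2, also counted as higher than in LSK, passed background on 2 of 15 lymphoma arrays and 0 of 3 LSK arrays. Of single-positive maturation genes, 3 of 6 measured were higher than in LSK and 1 lower (median 0.18). Ccr4, a chemokine receptor gene below background on all LSK arrays, was at least 2.88-fold higher (adjusted p = 5.32e-06), Ccr7 0.80 higher (0.00421) and Klf2 0.47 higher (0.0206), while S1pr1, the thymus exit receptor gene, was lower (-2.41, 0.000284). In DN4 against DN1, 5 of the 6 were lower and 0 higher (median -0.88), the same direction as Cd4 and Runx3. Cd69 averaged 8.65 in DN4, against 10.47 in DN1 (difference -1.82, adjusted p = 2.95e-07), S1pr1 5.91, against 7.27 (-1.37, 7.41e-05), and Ccr7 7.08, against 8.09 (-1.01, 0.0272). Foxo1 was lower by a smaller step (-0.75, 0.00612).

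**Figure D4:**
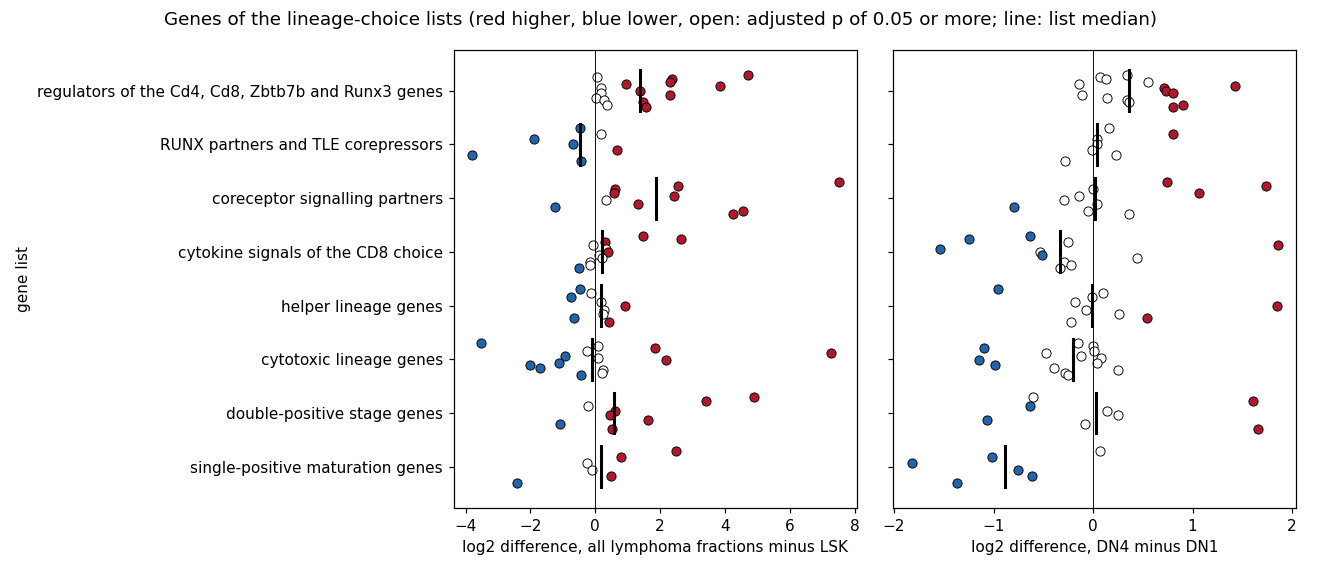
Measured log2 differences (no bounds) of the genes of the 8 lists, for all lymphoma fractions minus LSK and for DN4 minus DN1; each point is a gene, red called higher and blue called lower at an adjusted p of 0.05, white not called, and a bar marks each list's median. The regulators have a median of 1.38 against LSK, and the single-positive maturation genes a median of -0.88 for DN4 minus DN1.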

How the data were processed

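RNA of sorted cells (RNeasy Micro kit, Affymetrix WT Pico labelling, per the labels) was hybridised to 18 arrays in 6 groups of 3. The deposited values are log2 signals that the authors made with RMA in the oligo package, per the submitters' processing notes; versions are not given in the sources used here. RMA puts all arrays on a common distribution, so levels are relative. Array data carry no read depth, and the number of arrays limits the precision. Of 41345 probe sets, 23521 had 1 gene symbol in the platform annotation, 1814 had several and 16010 had none; the brightest single-symbol probe set by mean over the arrays stood for each of 22180 genes.

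Differences were fitted with limma 3.58.1 (lmFit, eBayes, two-sided) in R 4.3.3, with Benjamini-Hochberg adjustment over all genes and a threshold of 0.05. All lymphoma fractions together entered as 3 means of the 5 arrays with the same number, each fraction was fitted alone with LSK, and the F test (4 degrees of freedom) and the 10 pairs used the 15 lymphoma arrays. A lower bound (at least N-fold) sets the mean of the brighter group against arrays of the dimmer one raised, where lower, to their background level. It is a point value from group means: it allows for the background floor, not for the spread between arrays. The scripts were tested on simulated data. Tables and figures used Python 3.11.15, pandas 2.3.3 and matplotlib 3.10.9.

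The 5 genes, the 8 lists and the tests were chosen with earlier results of these data known. Text names the members, the 3 most similar genes of each, and from each list up to 4 genes with the smallest p against LSK and up to 4 in the F test. Alternatives were another gene summary, a filter on low signal, quantile normalization, a prior that is trended and robust, a replicate block, a single model of all 18 arrays and the omission of each array in turn. No 2 arrays held identical values. Genome coordinates are those of the RefSeq promoter table only.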

Additional observations from a re-analysis of the deposited data

Results flagged for a closer look

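For 3 of the 5 genes the difference to LSK was not alike in the 5 lymphoma fractions, by the F test over the 15 lymphoma arrays, which is the test of that difference because all fractions were set against the same 3 LSK arrays. Runx3 ran from -1.57 in DN4 to -0.36 in DN1 (adjusted p = 9.93e-05, limma). Cd4, below background in LSK, was lowest in CLP and highest in DN1, where it was at least 2.30-fold above LSK (F test adjusted p = 0.000818). In CLP it passed background on 1 of 3 arrays. Its bound there was 1.13-fold, and the difference to LSK was not called (adjusted p = 0.0527, limma). Cd8a was called too (adjusted p = 0.0333), with its lowest mean in CLP and its highest in DN3, but most of its values were below background and no fold is given.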

How the results depend on the processing

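Over the alternatives, 980 values of the 5 genes kept their side of the threshold, 32 lost a call and 13 gained one. Of the values called in the main or the alternative run, 0 reversed in sign. Small differences that were called in neither run could change sign. An example is Runx3 in DN3 minus CLP, 0.004 in the main run and -0.085 with quantile normalization. The calls of Cd4, Cd8b1 and Runx3 for the lymphoma fractions together against LSK, and those of Cd4 and Runx3 in the F test, in DN1 minus CLP and in DN4 minus DN1, held in every alternative run. Log2 differences are as measured, also where LSK was below background. Calls were gained with a filter on low signal for Cd4 in CLP minus LSK (0.66, adjusted p = 0.0452), Cd8a in DN3 minus CLP (0.69, 0.0442) and Runx3 in DN2 minus DN1 (-0.59, 0.0460). They were gained with quantile normalization for Runx3 in DN2 minus DN1 (-0.60, 0.0468), and for Cd4 in CLP minus LSK (0.66) with a trended and robust prior (0.0397) and with all 18 arrays in 1 model (0.00567). The F test without the CLP fraction, added after seeing the data, gave Cd8a an adjusted p of 0.309. Counts of called genes moved with quantile normalization in DN3 minus CLP (153, against 243) and with all 18 arrays in 1 model in CLP minus LSK (6140, against 3928). Same-numbered lymphoma arrays deviated together in 21 of 30 pairs (r over 0.1, range -0.193 to 0.346), and 13 of 15 arrays correlated best with their own number, a hint from the data and not from the design. Pairs of lymphoma and LSK arrays did so in 3 of 15. With the replicate block Cd8a in DN2 minus CLP gave 0.63 (0.0535) and DN4 minus CLP called 360 genes, against 237.

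Leaving out 1 array at a time gave these ranges where a call changed. Cd4 ran from 0.51 to 0.80 in CLP minus LSK, from 0.68 to 0.91 in DN2 minus CLP, from -0.79 to -0.54 in DN3 minus DN1 and from -0.70 to -0.58 in DN4 minus DN2. Runx3 ran from 0.35 to 0.57 in DN2 minus CLP, called without CLP replicate 3, and from -0.68 to -0.57 in DN4 minus DN2. Cd8a ran from 0.51 to 0.69 in DN1 minus LSK, from 0.50 to 0.71 in DN2 minus CLP, from 0.55 to 0.83 in DN3 minus CLP (called without CLP replicate 1 or 3 or DN3 replicate 2) and from 0.51 to 0.74 in DN4 minus CLP (called without CLP replicate 1). The F test's adjusted p ran from 0.0178 to 0.113 for Cd8a and from 0.0485 to 0.557 for Cd8b1. Counts of called genes ran from 2559 (without LSK replicate 1) to 4598 in CLP minus LSK and from 144 (without DN2 replicate 2) to 264 in DN2 minus DN1. They ran from 1240 to 2636 in DN1 minus CLP, from 299 to 1270 in DN2 minus CLP, from 53 to 653 in DN3 minus CLP and from 65 to 1217 in DN4 minus CLP, each highest without CLP replicate 1, and from 1 to 2 in DN4 minus DN3. The causes were not tested. Each gene had a single probe set, so another probe set could not be tried.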
